A study of Homo sapiens with 24 samples.

Results

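Gene expression in hepatocyte-like HepaRG cells 24 h after they had been replated at low density was compared with expression in the same kind of cells at the 0 h start. The comparison took the 3 arrays labelled 24 h and the 3 labelled 0 h, which are 6 of the 24 arrays of the series, and all probe sets that are not controls. Of 22215 such probe sets 17122 passed a filter on low signals, and they gave 9966 genes with 1 probe set each, the same genes as in the series as a whole. HepaRG is a line of human liver progenitors whose cultures differentiate into hepatocyte-like cells and cells of a biliary kind. All cells, those of the 0 h arrays included, had grown for 2 weeks in medium with hydrocortisone (50 μM), insulin (5 μg/ml) and 10% fetal bovine serum, and for 2 more weeks with 2% DMSO added. Mild trypsin then lifted the hepatocyte-like cells selectively, and they were seeded sparsely, a step the labels describe as inducing reprogramming. The 24 h arrays carry this seeding in their source label, and the source label of the 0 h arrays names hepatocyte-like HepaRG cells alone. The study rests on 1 cell line, and its labels leave unsaid whether replicates are separate cultures. The p-values below therefore refer to the spread among these samples, and that spread may be technical.

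Differentiated hepatocytes rest outside the cell cycle and devote much of their transcription to plasma proteins, drug-metabolising enzymes and the handling of nitrogen, glucose, lipids and bile acids. Spreading on a new surface engages integrins and the actin cytoskeleton. Entry into the cycle proceeds through a G1/S programme of replication genes, classically under E2F factors, and later through a G2/M programme of mitotic genes, many of whose promoters carry CCAAT boxes and an element called the cell cycle genes homology region (CHR).

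The median signal of an array averaged 114.4 ± 10.8 at 24 h and 135.2 ± 6.11 at 0 h (SD, n = 3 each). For the ACTB controls the ratio of 3' to 5' signal, which is higher for degraded RNA, averaged 1.35 ± 0.147 at 24 h and 3.83 ± 2.68 at 0 h. At 0 h replicate 2 stood at 6.91 and the other arrays at 2.03 and 2.56. All lay above the 24 h arrays, at 1.3, 1.52 and 1.24, so omitting 0 h replicate 2 does not remove this difference. The exact two-sided permutation test gave p = 0.1 for the median signal and for the ACTB ratio, the smallest value that 3 against 3 arrays can give. The same ratio for the GAPDH controls averaged 1.15 ± 0.298 at 24 h and 1.38 ± 0.471 at 0 h (exact permutation p = 0.5). Without 0 h replicate 2 the comparison called 1067 genes higher and 1003 lower, and 942 and 930 of these were also called with all 6 arrays. Pearson's r of the log2 values across probe sets was 0.952 to 0.955 between arrays at 24 h, 0.936 to 0.942 between arrays at 0 h, and 0.843 to 0.857 between the times.

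At 24 h, 1039 of the 9966 genes (10.4%) were higher than at 0 h and 1119 (11.2%) were lower. A gene was called when limma gave a Benjamini-Hochberg adjusted p under 0.05 over all genes and the difference was at least 2-fold. The difference was at least 4-fold for 237 of the genes called higher and 262 of those called lower, and at least 16-fold for 12 and 15. In 2081 of the 2158 called genes (21.7% of all) the 3 values at 24 h did not overlap the 3 at 0 h; over all genes they lay wholly above for 22.3% and wholly below for 24.4%. The median difference over all genes was -0.09 on the log2(signal + 18) scale, on which every difference below is given with its standard error (SE). The balance between directions depended on scaling: 48.1% of called genes were higher with the signals as deposited, 54.5% after quantile normalization and 65.6% after centring each array on its median, which moved the median of all genes to 0.12. In these bulk samples fewer cells of a type and less RNA per cell cannot be told apart.

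**Figure D1:**
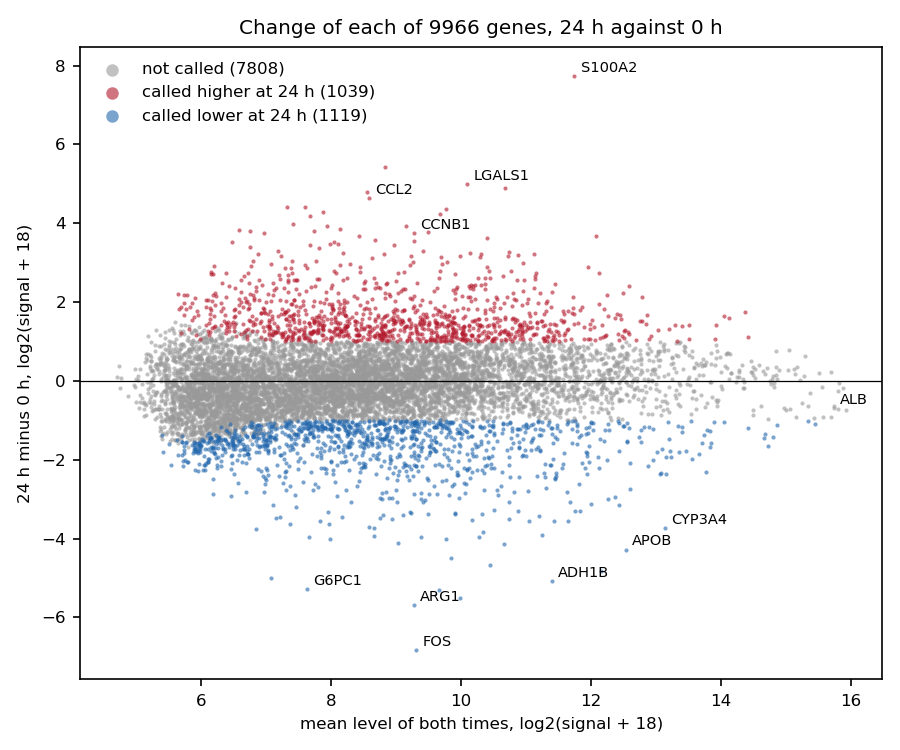
Each point is 1 of 9966 genes, with its mean level at both times on the horizontal axis and the difference of 24 h minus 0 h on the vertical axis, both as log2(signal + 18). The 1039 genes called higher are red, the 1119 called lower are blue and the 7808 not called are grey; S100A2 lies at 7.74 and FOS at -6.84.

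The largest rise was that of S100A2, which encodes a calcium-binding protein found in epithelia. Its signals were 48285, 56094 and 46334 at 24 h and 216, 226 and 206 at 0 h. Every 24 h array lay far above every 0 h array, and the log2 difference was 7.74 ± 0.15 (limma, adjusted p = 1.28e-28). LGALS1, which encodes galectin-1, had 7869, 3950 and 6701 at 24 h and 128, 164 and 231 at 0 h (4.98 ± 0.19, adjusted p = 1.43e-19). IL1RL1, the receptor for interleukin-33, gave 2706, 2545 and 3081 at 24 h and 81.5, 11.4 and 77.1 at 0 h (5.42 ± 0.27, adjusted p = 6.23e-17), but its other tested probe set differed by -0.18. GLIPR1 had 9190, 9586 and 7685 at 24 h and 331, 203 and 321 at 0 h (4.89 ± 0.15), and its other probe sets also differed upwards, by 2.38 and 3.31.

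The deepest fall was that of FOS, a subunit of the AP-1 transcription factor. Its signals were 77.6, 10.3 and 41.5 at 24 h and 8415, 7804 and 3630 at 0 h (-6.84 ± 0.43, adjusted p = 1.67e-14). ARG1, the arginase that closes the urea cycle, came next among genes measured without overlap, with 27.5, 118 and 71.5 at 24 h and 4130, 3663 and 4978 at 0 h (-5.69 ± 0.27, adjusted p = 1.84e-17). For both genes every 24 h array lay far below every 0 h array.

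**Figure D2:**
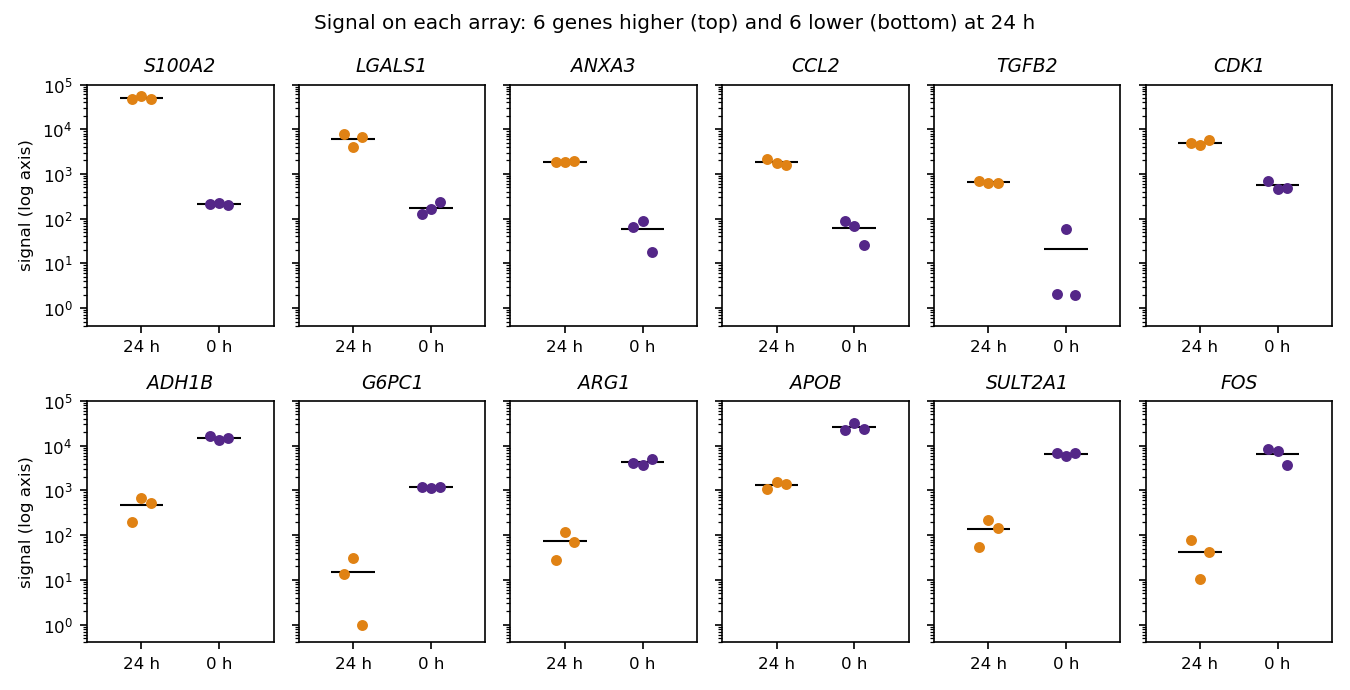
Signals of 12 genes on each array, on a log axis, with the 3 arrays at 24 h (orange) left of the 3 at 0 h (purple) and a line at each mean. S100A2, LGALS1, ANXA3, CCL2, TGFB2 and CDK1 were higher on every 24 h array, and ADH1B, G6PC1, ARG1, APOB, SULT2A1 and FOS were lower on every one.

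Mitotic genes rose almost as a block. Of 50 tested genes of G2/M and mitosis, 47 were higher at 24 h and 0 lower, with a median difference of 2.33; of all genes 10.4% were higher, and their median was -0.09. CCNB1, the B-type cyclin that drives entry into mitosis, had signals of 2492, 1997 and 2336 at 24 h and 164, 134 and 156 at 0 h (3.76 ± 0.17, adjusted p = 5.02e-18). CDK1, the kinase that CCNB1 activates, had 4952, 4466 and 5684 at 24 h and 711, 469 and 481 at 0 h (3.16 ± 0.21), and its other probe sets differed by 2.91 and 2.74. NDC80, which ties kinetochores to microtubules, had 1338, 1363 and 1166 at 24 h and 178, 30.2 and 123 at 0 h (3.57 ± 0.35). For these genes no array at 24 h overlapped those at 0 h. CDC20, an activator of the anaphase-promoting complex, rose by 3.30 ± 0.20, and the kinase gene MELK by 3.28. The 3 members not called were MKI67, a proliferation antigen, at 0.99 ± 0.25, the mitotic kinase PLK1 at 0.95 ± 0.35 and UBE2C, a ubiquitin-conjugating enzyme of mitosis, at -0.92 ± 0.52. PLK1 and UBE2C were named after their values were seen. MKI67 passed the p threshold (adjusted p = 0.00184) and missed the 2-fold one, with 433, 395 and 381 at 24 h and 233, 141 and 222 at 0 h; after median centring it was called at 1.20.

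The replication list moved less far. Of 46 tested genes of G1/S and DNA replication 28 were higher and 0 lower, with a median of 1.34. GINS1, a subunit of the replicative helicase, had 2400, 2401 and 2507 at 24 h and 358, 410 and 312 at 0 h (2.71 ± 0.19, adjusted p = 1.35e-13). FEN1, the flap endonuclease of Okazaki fragments, rose by 2.04 ± 0.17, the ribonucleotide reductase subunit RRM1 by 1.94 ± 0.17 and the helicase subunit MCM2 by 1.84. PCNA, the sliding clamp of DNA polymerases, had 6596, 8113 and 5155 at 24 h and 2878, 1707 and 2729 at 0 h (1.45 ± 0.19, adjusted p = 2.24e-07). CCND1, the D-type cyclin of G1, had 748, 836 and 835 at 24 h and 187, 298 and 253 at 0 h (1.66 ± 0.17). Groups did not overlap for either gene. Of 22 CDK inhibitors and p53 targets 5 were higher and 0 lower, among them PLK2 at 2.05 and the pro-apoptotic BAX at 1.41; CDKN2A, the locus of p16, rose by 1.29 on an _x_at probe set, a class that can cross-hybridise, and differed by 0.86 without such probe sets.

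Promoters of the mitotic genes are shown because so many of them share short motifs. Sequences of 300 bases, from 250 before to 50 after the first listed start, came from RefSeq on GRCh38.p14, and 41 of the 50 mitotic, 40 of the 46 replication and 8116 of the 9966 tested genes had one. CCAAT, searched on both strands (reverse complement ATTGG), lay in 32 of the 41 mitotic promoters (78.0%), against 37.4% of the tested genes. It also lay in 23 of 40 replication promoters (57.5%), and in 40.9% of those of genes higher at 24 h and 40.8% of those of genes lower. TTTGAA, the CHR (reverse complement TTCAAA), lay in 26 of the 41 mitotic promoters (63.4%), against 10.2% of the tested genes and 1 of 40 replication promoters (2.5%). Both stood together in 56.1% of the mitotic promoters and in 4.3% of those of tested genes. The median position of the matches was 73 bases before the start for CCAAT and 29 before it for TTTGAA. A match describes the letters alone. In the 110 bases before the start of 6 mitotic genes, written 5' to 3' on the strand of the gene, capitals mark CCAAT or ATTGG and TTTGAA or TTCAAA. They lie at chr16:23678779-23678888 (plus strand) for PLK1, chr10:92593020-92593129 (plus) for KIF11, chr15:90994536-90994645 (minus) for PRC1, chr9:89311085-89311194 (plus) for CKS2, chrX:70289994-70290103 (plus) for KIF4A and chr1:43358871-43358980 (plus) for CDC20, and were chosen after their letters were seen.
PLK1: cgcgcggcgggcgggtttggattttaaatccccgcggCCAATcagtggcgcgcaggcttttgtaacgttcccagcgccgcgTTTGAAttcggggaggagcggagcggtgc
KIF11: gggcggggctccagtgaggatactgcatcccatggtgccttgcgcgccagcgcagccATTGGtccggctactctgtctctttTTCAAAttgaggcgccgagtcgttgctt
PRC1: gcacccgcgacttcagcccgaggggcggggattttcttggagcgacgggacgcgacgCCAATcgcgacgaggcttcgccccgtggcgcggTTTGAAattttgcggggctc
CKS2: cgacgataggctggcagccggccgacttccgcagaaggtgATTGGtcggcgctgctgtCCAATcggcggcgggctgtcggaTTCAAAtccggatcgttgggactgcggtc
KIF4A: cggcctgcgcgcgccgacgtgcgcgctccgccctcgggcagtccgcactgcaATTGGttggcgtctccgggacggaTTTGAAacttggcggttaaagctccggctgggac
CDC20: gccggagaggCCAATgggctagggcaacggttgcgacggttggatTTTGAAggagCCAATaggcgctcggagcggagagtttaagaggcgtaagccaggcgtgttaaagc

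The same 6 genes differed in size of change. PRC1, a bundler of spindle microtubules, rose by 3.17 ± 0.21, CDC20 by 3.30 ± 0.20 and CKS2, a small partner of CDK1, by 2.74. The kinesins KIF4A and KIF11 rose by 1.94 and 1.57, and PLK1, with 187, 211 and 186 at 24 h and 127, 89.7 and 68.2 at 0 h, was not called. Every 24 h value of PLK1 still lay above every 0 h value. Whether these motifs go with the rise was not tested.

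An E2F-type motif was searched on both strands in 3 spellings. One was TTCCCGC, another had the letters TTCGCGC, and the remaining one read TTGGCGC. At least 1 of them lay in 29 of 40 replication promoters (72.5%), 12 of 41 mitotic ones (29.3%) and 17.2% of those of tested genes. TTGGCGC preceded by A overlaps the CCAAT motif read on the other strand. Capitals mark this motif in the 110 bases before the start of 5 replication genes, chosen after their letters were seen, at chr20:5126623-5126732 (minus strand) for PCNA, chr6:52284743-52284852 (minus) for MCM3, chr2:135876444-135876553 (minus) for MCM6, chr13:33818039-33818148 (plus) for RFC3 and chr1:212035638-212035747 (plus) for DTL. In MCM6 the capitals hold a pair of overlapping matches.
PCNA: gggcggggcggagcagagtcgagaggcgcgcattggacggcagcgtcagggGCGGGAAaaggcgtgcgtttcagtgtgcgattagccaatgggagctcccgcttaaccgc
MCM3: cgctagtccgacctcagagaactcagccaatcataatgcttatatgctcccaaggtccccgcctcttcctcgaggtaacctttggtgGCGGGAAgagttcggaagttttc
MCM6: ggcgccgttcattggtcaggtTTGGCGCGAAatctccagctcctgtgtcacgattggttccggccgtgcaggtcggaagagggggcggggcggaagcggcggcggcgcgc
RFC3: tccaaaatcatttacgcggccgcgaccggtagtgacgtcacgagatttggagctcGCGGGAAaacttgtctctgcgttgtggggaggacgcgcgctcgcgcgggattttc
DTL: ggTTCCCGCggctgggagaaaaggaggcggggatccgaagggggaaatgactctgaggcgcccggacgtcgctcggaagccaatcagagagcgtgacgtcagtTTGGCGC
The 5 genes shown were all called higher. MCM3 and MCM6, subunits of the replicative helicase, rose by 1.15 and 1.58, and the clamp loader subunit RFC3 by 1.59. The ubiquitin ligase subunit DTL rose by 1.44 and PCNA by 1.45. The motif also lay in promoters of replication genes that were not called. They were CDT1, ORC1, RFC2, RPA1, POLA1, POLE, LIG1, UNG, E2F1, CHAF1A and CHAF1B. Whether the motif goes with the rise was not tested.

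Of 28 ribosome biogenesis genes 13 were higher and 0 lower, with a median of 0.98; FBL, the methyltransferase fibrillarin, had 6387, 4867 and 5330 at 24 h and 1846, 1715 and 1465 at 0 h (1.71 ± 0.12, adjusted p = 2.9e-13). Of 43 cytosolic ribosomal protein genes 1, RPS3 at 1.07, was higher and 0 were lower. Of 27 cytosolic chaperones 9 were higher and 0 lower, and 17 were higher after median centring. HSPB1, a small heat shock protein, led them with 11601, 9813 and 10556 at 24 h and 1707, 1034 and 1652 at 0 h (2.88 ± 0.17). Its groups lay far apart. Of 32 proteasome genes 4 were higher, a share near the 10.4% of all genes, with 2 higher without 0 h replicate 2 and 7 after median centring. Among 39 genes of the unfolded protein and amino acid responses 3 were higher, a share no larger than the 10.4% of all genes, and 7 lower. The lower ones included the endoplasmic reticulum chaperones DNAJB9 at -1.91 and HSP90B1 at -1.20; median centring left 3 lower, without HSP90B1 (-0.98), whose call was also lost without 24 h replicate 3. SLC7A11, the cystine transporter, rose by 2.23.

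Genes of the cytoskeleton and of adhesion rose in part. Of 41 actin cytoskeleton genes 18 were higher and 0 lower, with a median of 0.92. TPM4, a tropomyosin, had 2681, 1983 and 1816 at 24 h and 201, 77.3 and 116 at 0 h (3.93 ± 0.20). ACTN1, the cross-linker alpha-actinin, rose by 2.56 ± 0.17, the tubulin TUBA1A by 3.01 ± 0.20 and the tropomyosin TPM1 by 2.22. Of 27 integrin and focal adhesion genes 11 were higher and 1, ITGA7, was lower. ITGA7, a laminin receptor subunit, had 174, 137 and 21.8 at 24 h and 292, 170 and 245 at 0 h; the groups overlapped, and the call at -1.23 ± 0.44 was lost in 9 alternatives, among them median centring (-1.02) and the mean of probe sets (-0.77), and the omission of 24 h replicate 3, 0 h replicate 1 or 0 h replicate 3. CAV1, the coat protein of caveolae, rose by 2.41, the urokinase receptor PLAUR by 1.94 and the linker kinase ILK by 1.45. ITGB4, an integrin of hemidesmosomes, was called at 1.06 on a dim probe set, while another of its probe sets fell by 1.91. Of 23 YAP/TEAD and SRF targets 8 were higher and 0 lower, with FHL2 at 3.25 and ANKRD1 at 1.60.

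Among 22 annexin and S100 genes 12 were higher and 1 lower, with a median of 1.33. ANXA3, a membrane-binding annexin, had 1817, 1829 and 1956 at 24 h and 64.7, 89.7 and 18.2 at 0 h (4.78 ± 0.24, adjusted p = 4.62e-17). S100A3 rose by 3.86 ± 0.26, S100A11 by 3.63 ± 0.21 and S100A4 by 3.47. ANXA1, an annexin that glucocorticoids regulate, had 5936, 5876 and 8211 at 24 h and 1081, 493 and 616 at 0 h (3.22 ± 0.18). The lower member was ANXA9 at -1.39.

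Of 40 matrix genes 11 were higher and 5 lower, the lower share being near the 11.2% of all genes. POSTN, the matricellular protein periostin, had 4016, 4011 and 3613 at 24 h and 137, 224 and 167 at 0 h (4.35 ± 0.17, adjusted p = 1.43e-19). TNC, which encodes tenascin-C, rose by 3.77 ± 0.28, though its other probe set differed by 0.31, and the stromelysin MMP3 rose by 3.54 ± 0.18. FN1, the fibronectin gene, read here by an _x_at probe set, fell to 10851, 13486 and 10949 at 24 h, against 26044, 22971 and 23742 at 0 h (-1.05 ± 0.17). Its groups did not overlap, but the difference missed 2-fold after median centring (-0.84), with the mean of probe sets (-0.93) and without 24 h replicate 1 or 0 h replicate 1. COL18A1, a basement membrane collagen, fell by 1.72 ± 0.20. The lower count of this list dropped to 3 with the larger pseudocount or the stricter filter, and to 2 with the mean of probe sets or without 24 h replicate 2. Of 22 genes of the epithelial-mesenchymal transition 4 were higher, with AXL, a receptor tyrosine kinase, at 2.73. Another 2 were lower, a share near the 11.2% of all genes, and 16 were not called. Median centring made 7 higher. CDH1, the epithelial cadherin, had 289, 390 and 537 at 24 h and 979, 1006 and 1007 at 0 h (-1.30 ± 0.25, adjusted p = 7.27e-05). SNAI2, a repressor of epithelial genes, had 1662, 1723 and 2073 at 24 h and 1508, 1001 and 1139 at 0 h, and at 0.59 ± 0.18 was not called. Junction genes also split, with 4 of 21 higher and 5 lower: the connexin gene GJA1 rose by 2.78, and GJB1, the main connexin of hepatocytes, fell by 2.33 ± 0.24.

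Of 41 growth factors and receptors 12 were higher and 5 lower, the lower share again near the 11.2% of all genes. TGFB2, a TGF-beta ligand, had 690, 624 and 638 at 24 h and 2.09, 58.4 and 1.99 at 0 h (4.42 ± 0.32, adjusted p = 5.11e-13), with its other probe sets at 1.63, 0.68 and 0.99. EREG, the EGF receptor ligand epiregulin, had 738, 923 and 870 at 24 h and 5.1, 128 and 7.38 at 0 h (4.28 ± 0.36). In both genes 0 h replicate 2 read higher than the other 0 h arrays and stayed below all 24 h arrays. VEGFC rose by 2.91 ± 0.43, while VEGFA fell (-1.88) and so did the receptor gene ERBB3 (-2.52).

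Of 26 cytokine and chemokine genes 6 were higher and 4 lower, the lower share being not far above the 11.2% of all genes. CCL2, a monocyte attractant, had 2175, 1782 and 1571 at 24 h and 87.2, 68.7 and 26.2 at 0 h (4.64 ± 0.21, adjusted p = 1.11e-17). IL18, a cytokine of the interleukin-1 family, rose by 3.68 ± 0.19. CXCL2, a neutrophil attractant on an _x_at probe set, fell to 792, 1138 and 808 at 24 h, against 14391, 10810 and 7846 at 0 h (-3.54 ± 0.19). Of 23 genes of the NF-kappaB response 8 were higher and 0 lower, including F3, the tissue factor that starts coagulation, at 3.16 ± 0.23 and the pentraxin PTX3 at 3.05 ± 0.27. Of 37 interferon-stimulated genes 7 were higher, led by ISG20 at 2.24, and 5 lower, led by IFIT2 at -2.28. The lower share was near the 11.2% of all genes, and the lower count was 2 or 3 in several alternatives given in the closing section.

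Of 33 tested immediate early genes 10 were lower, 4 higher and 19 not called, with a median of -0.28. The higher share was near the 10.4% of all genes. EGR1, a zinc finger factor, had 625, 565 and 835 at 24 h and 9343, 10721 and 4044 at 0 h (-3.44 ± 0.21, adjusted p = 1.08e-14), and FOSB fell by 3.48 ± 0.45. For FOS, FOSB and EGR1 the third 0 h replicate read lowest of the 3 and still lay above every 24 h array. DUSP5, a nuclear phosphatase of ERK, rose by 2.55 ± 0.34, and the AP-1 subunit FOSL1 rose by 1.75. MYC had 1312, 1749 and 1941 at 24 h and 3073, 2361 and 1249 at 0 h; the groups overlapped and the difference of -0.34 ± 0.21 was not called (adjusted p = 0.219).

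**Figure D3:**
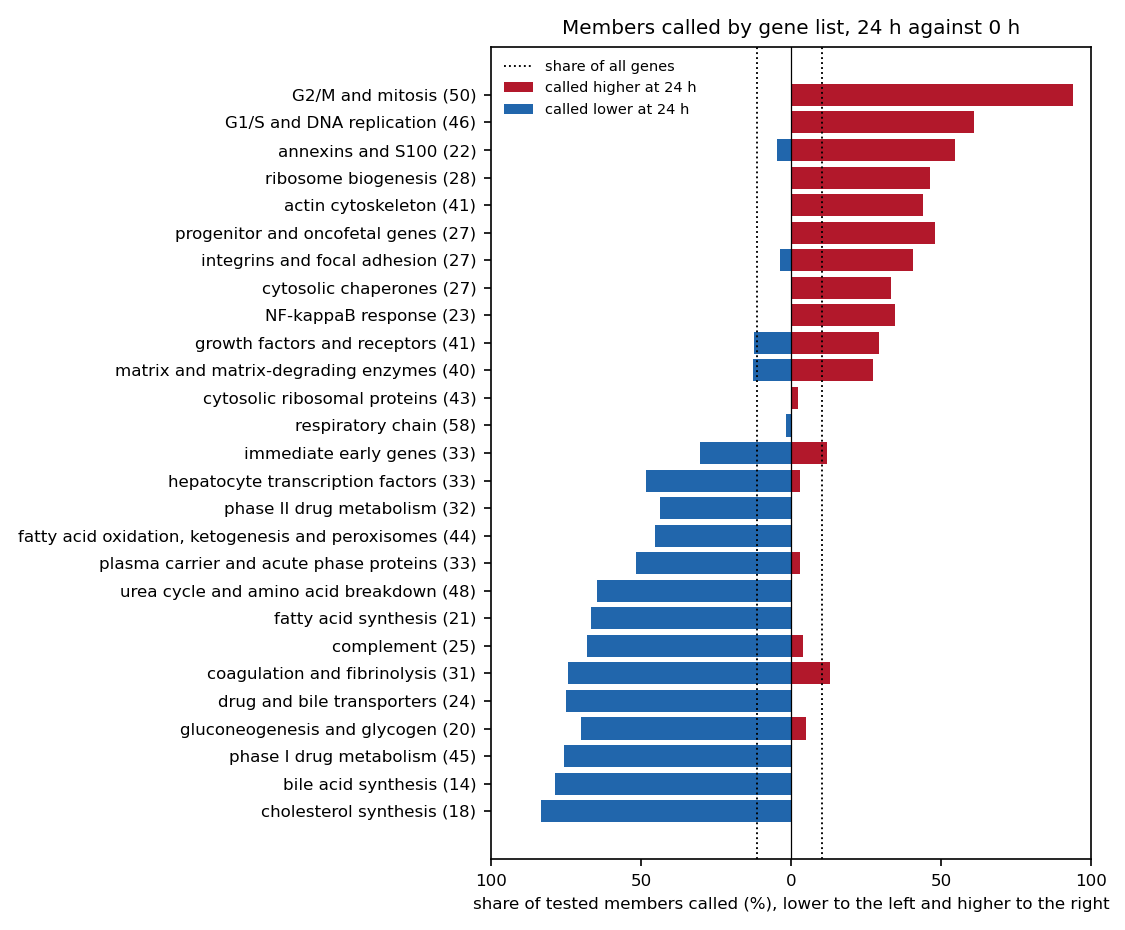
Share of the tested members of 27 gene lists called higher (red, to the right) and lower (blue, to the left) at 24 h against 0 h, with the number tested in brackets. Dotted lines mark the shares of all 9966 genes, 10.4% higher and 11.2% lower; the mitotic list reaches furthest to the right with 47 of 50, and cholesterol synthesis furthest to the left with 15 of 18.

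Of 33 tested transcription factors of the hepatocyte state 16 were lower, 1 higher and 16 not called, with a median of -1.06. The lower count was 12 after quantile normalization and 11 after median centring. CEBPA, a factor of liver metabolism, had 129, 65.9 and 84.7 at 24 h and 589, 629 and 658 at 0 h (-2.57 ± 0.35, adjusted p = 3.19e-07). MLXIPL, which responds to glucose, had 14.6, 270 and 120 at 24 h and 1090, 1320 and 1167 at 0 h (-3.47 ± 0.41). NR1I3, the xenobiotic receptor CAR, fell by 3.15 ± 0.45, and PROX1 and ONECUT1 lay at -2.62 and -2.31. Groups were far apart for each of them. FOXA2, a pioneer factor of liver genes named after its values were seen, had 508, 915 and 544 at 24 h and 568, 847 and 776 at 0 h, which overlapped (-0.18 ± 0.23, adjusted p = 0.57). The higher member was VDR, the vitamin D receptor, at 2.04 ± 0.35, whose other probe sets differed by -0.27, 1.81 and 0.29 and whose call was lost with the mean of probe sets (0.97). HNF4A was not analysed here. Among 14 clock and PAR bZIP genes 5 were lower and 2 higher, the higher share being not far above the 10.4% of all genes. The higher count was 1 with the larger pseudocount or without 24 h replicate 2. HLF, a PAR bZIP factor of liver, fell to 79.1, 40.1 and 21.3 at 24 h, against 1042, 988 and 862 at 0 h (-4.02 ± 0.43).

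Most tested genes of phase I drug metabolism, the oxidising and hydrolysing enzymes, fell. Of 45 34 were lower and 0 higher, with a median of -2.02. ADH1B, an alcohol dehydrogenase, had 201, 686 and 523 at 24 h and 16257, 13714 and 14600 at 0 h (-5.09 ± 0.27, adjusted p = 1.76e-16), with its other probe sets at -5.34 and -4.89. CYP2E1, the ethanol-oxidising cytochrome, had 530, 630 and 669 at 24 h and 8670, 9828 and 9547 at 0 h (-3.90 ± 0.25). CYP3A4, the main drug-oxidising cytochrome of liver, had 1919, 1964 and 3606 at 24 h and 29584, 32406 and 34928 at 0 h (-3.75 ± 0.20). It was read by an _x_at probe set that may also bind other CYP3A transcripts. Its other probe sets differed by -4.48, -4.25 and -0.22, the last being its 1 probe set of another class. CYP4F3 fell by 4.68 ± 0.24, and ADH6 and CYP3A5 lay at -4.00 ± 0.18 and -3.97. Members not called included CYP1A1, which aryl hydrocarbon receptor ligands induce, at 0.89, and ADH5, the formaldehyde-oxidising dehydrogenase, at -0.04; both were named after their values were seen.

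Of 32 phase II genes 14 were lower and 0 higher. SULT2A1, a steroid sulfotransferase, had 54.8, 217 and 147 at 24 h and 6764, 5805 and 6769 at 0 h (-5.51 ± 0.24, adjusted p = 3.38e-18). GLYAT, which conjugates acyl groups with glycine, had 61.6, 219 and 77.6 at 24 h and 4292, 4737 and 5366 at 0 h (-5.30 ± 0.29). Of 24 transporters 18 were lower and 0 higher: AQP9, a glycerol channel, fell by 4.50 ± 0.32, and SLC10A1, which takes up bile salts, fell by 2.98 ± 0.26. Of 14 bile acid synthesis genes 11 were lower and 0 higher, and CYP7A1, the rate-limiting enzyme, had 35.5, 34.8 and 12.8 at 24 h and 514, 428 and 468 at 0 h (-3.46 ± 0.48).

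Most tested genes of nitrogen and glucose metabolism fell as well, with the signals as deposited. Of 48 urea cycle and amino acid genes 31 were lower and 0 higher. The lower count was 33 after quantile normalization and 24 after median centring, which also made 1 gene higher. After ARG1, CPS1, which fixes ammonia in the first step of the cycle, had 161, 180 and 119 at 24 h and 2287, 2857 and 2674 at 0 h (-3.95 ± 0.26, adjusted p = 2.89e-14). AASS, of lysine breakdown, fell by 3.73 ± 0.21. TAT, the tyrosine aminotransferase, on an _x_at probe set, fell by 2.77 ± 0.40. Of 20 gluconeogenesis and glycogen genes 14 were lower and 1 higher, with a median of -2.19. PCK1, the rate-limiting enzyme of gluconeogenesis, had 4.07, 4.18 and 8.65 at 24 h and 851, 588 and 819 at 0 h (-5.01 ± 0.43), and G6PC1, which frees glucose from its phosphate, had 13.6, 30.2 and 0.994 at 24 h and 1214, 1153 and 1169 at 0 h (-5.28 ± 0.38). All 3 signals of PCK1 at 24 h lay below the pseudocount of 18, so its difference understates the ratio of signals. The higher member was PYGB, the brain form of glycogen phosphorylase, at 2.65 ± 0.38.

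Most tested genes of lipid synthesis fell. Of 18 cholesterol synthesis genes 15 were lower and 0 higher, with a median of -1.75. SC5D, a sterol desaturase, had 1349, 2123 and 1740 at 24 h and 13384, 15134 and 12877 at 0 h (-3.00 ± 0.15, adjusted p = 4.62e-17), and HMGCS1, an early enzyme of the route, fell by 2.47 ± 0.15. SREBF2, the factor that controls the route, differed by -0.01 and was named after its value was seen. Of 21 fatty acid synthesis genes 14 were lower and 0 higher, with the synthase FASN at -3.00. Of 44 genes of fatty acid oxidation, ketogenesis and peroxisomes 20 were lower, 0 higher and 24 not called, and median centring left 14 lower; FABP1, the liver fatty acid carrier, had 796, 865 and 833 at 24 h and 23332, 21688 and 28014 at 0 h (-4.83 ± 0.20). Of 58 respiratory chain genes 1 was lower, SDHD at -1.06 ± 0.16, and 0 were higher, with a median of -0.25. The call of SDHD was lost after median centring (-0.84), with the mean of probe sets (-0.93) and without 0 h replicate 3.

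Most tested genes of secreted plasma proteins fell in each of 4 lists. Of 20 apolipoprotein and lipoprotein genes 13 were lower and 2 higher, the higher share being near the 10.4% of all genes. APOB, the protein core of VLDL, had 1060, 1543 and 1378 at 24 h and 22760, 31821 and 23749 at 0 h (-4.28 ± 0.19, adjusted p = 6.52e-18), and MTTP, which loads lipid on it, fell by 3.35. Of the higher members ANGPTL4, a lipase inhibitor, rose by 2.27, and APOL2 was called at 1.04 on an _x_at probe set and differed by -0.60 without such probe sets and by 0.93, not called, without 0 h replicate 2. Of 31 coagulation genes 23 were lower and 4 higher, the higher share again near the 10.4% of all genes. Those higher were F3, the inhibitors TFPI2 at 2.33 and TFPI at 1.48 (0.74 with the mean of probe sets, not called), and the thrombin receptor F2R at 1.46. SERPINA10, an inhibitor of factor Xa, fell by 3.38 ± 0.20. Of 25 complement genes 17 were lower and 1 higher, and C3 had 6602, 6259 and 5924 at 24 h and 30399, 31180 and 31313 at 0 h (-2.30 ± 0.12). Of 33 plasma carrier and acute phase genes 17 were lower and 1, AFP, higher. The lower count was 16 after quantile normalization, 14 after median centring and 15 without 0 h replicate 2. Median centring left 10 of 20 apolipoprotein, 20 of 31 coagulation and 16 of 25 complement genes lower.

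ALB, the albumin gene, had signals of 43585, 49360 and 36159 at 24 h and 59332, 77526 and 71484 at 0 h. The groups did not overlap, and the difference of -0.69 ± 0.14 (adjusted p = 0.000145) missed the 2-fold threshold, while other probe sets of ALB differed by -3.90 and 1.02 and the mean over its probe sets was called at -1.19. CRP, an acute phase protein, also missed it (-0.72 ± 0.26, adjusted p = 0.0258). Of the 15 hepatocyte markers 10 were lower and 0 higher, and their summed signal was 204394 to 254619 at 24 h and 459117 to 499085 at 0 h, so all marker sums at 24 h lay below those at 0 h.

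Genes of progenitor and biliary cells rose in part. Of 27 progenitor and oncofetal genes 13 were higher and 0 lower. HMGA2, a chromatin protein of fetal tissue, had 889, 964 and 1080 at 24 h and 136, 166 and 137 at 0 h (2.60 ± 0.18, adjusted p = 7.34e-14), and HMGA1 rose by 3.45 ± 0.30. JAG1, a Notch ligand on an _x_at probe set, rose by 3.17 ± 0.21, and 1 of its other probe sets also differed by 3.17. CD44, the hyaluronan receptor, had 3665, 3473 and 4376 at 24 h and 768, 997 and 684 at 0 h (2.22 ± 0.16). AFP, the fetal counterpart of albumin, had 462, 462 and 434 at 24 h and 151, 158 and 203 at 0 h (1.33 ± 0.28, adjusted p = 0.000194). KRT19, a biliary keratin, had 15984, 11501 and 17121 at 24 h and 3102, 3500 and 3469 at 0 h (2.12 ± 0.15). For each of these genes the groups did not overlap. SOX9, a biliary transcription factor, had 523, 479 and 453 at 24 h and 485, 641 and 426 at 0 h; the groups overlapped and the difference of -0.07 ± 0.17 (adjusted p = 0.784) changed sign in other settings, to 0.14 after median centring and 0.09 without 0 h replicate 2.

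Markers of other cell types moved as follows, and their part in the results above was not tested. Of 12 tested cholangiocyte markers 6 were higher and 0 lower, and the summed signal of the 17 on the array was 21477 to 30927 at 24 h and 11053 to 13746 at 0 h. KRT19 alone gave 11501 to 17121 of the sum at 24 h and 3102 to 3500 at 0 h, and the larger pseudocount left 3 of the 6 calls. The markers EPCAM, CLDN4, SCTR and PROM1 stayed below the 40th percentile on all 6 arrays. Of 11 stellate cell and fibroblast markers 3, POSTN, LUM and DCN, were higher and 0 lower, with sums of 7823 to 8045 at 24 h and 2518 to 2729 at 0 h. POSTN alone gave 3613 to 4016 of the sum at 24 h, and PDGFRA, LRAT and HAND2 stayed below the 40th percentile. Endothelial markers summed to 500 to 691 at 24 h and 963 to 1048 at 0 h. Of 8 tested 1, KDR, was lower, a share near the 11.2% of all genes, and 0 were under the stricter filter. Macrophage markers summed to 521 to 727 at 24 h and 959 to 1038 at 0 h with 0 of 8 called, and lymphocyte markers to 476 to 585 at 24 h and 513 to 907 at 0 h with 0 of 7 called. The 40th percentile was exceeded on at least 1 of the 6 arrays by 9 of 13 endothelial and 7 of 12 macrophage markers. It was also exceeded by 6 of 11 lymphocyte, 13 of 17 cholangiocyte and 12 of 15 stellate cell and fibroblast markers. Markers that stayed below it on all 6 arrays included CDH5, TEK, MARCO, C1QA, CD79A and MS4A1.

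The time points on either side of 24 h place the change from the start in its course. These comparisons share the 24 h arrays, so their values are given side by side. Against 16 h, 82 genes (0.823%) were higher at 24 h and 49 (0.492%) lower; against 48 h, 87 (0.873%) were higher and 32 (0.321%) lower. Of the 1039 genes higher than at 0 h, 66 were also higher than at 16 h and 6 lower, and 20 were higher than at 48 h and 4 lower. Of the 1119 genes lower than at 0 h, 34 were also lower than at 16 h and 2 higher, and 51 were higher than at 48 h and 17 lower.

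Of the 48 gene lists the mitotic one had the most members called against 16 h. Of its 50 genes 35 were higher at 24 h than at 16 h, with a median of 1.46, against 0.04 over all genes, and 0 were called in either direction against 48 h, with a median of -0.13. CCNB1 was higher than at 16 h by 1.69 ± 0.17 (adjusted p = 2.77e-08) and differed from 48 h by -0.98 ± 0.17. NUSAP1, a spindle protein, had 3512, 3643 and 3317 at 24 h and 729, 851 and 641 at 16 h (2.22 ± 0.15, adjusted p = 6.75e-12). AURKA, a kinase of spindle poles, was 2.16 ± 0.23 higher than at 16 h, the centromere chaperone HJURP 2.39 ± 0.43 and MXD3, a MYC antagonist, 2.56 ± 0.51. The replication list had 2 of 46 genes higher than at 16 h, and these were the ribonucleotide reductase subunits RRM2 at 1.58 ± 0.15 and RRM1 at 1.06 ± 0.17. Its median against 16 h was 0.15, and PCNA differed from 16 h by 0.04 ± 0.19 and from 48 h by 0.18 ± 0.19. Against 48 h the 1 replication gene called was DTL, higher at 24 h by 1.10 ± 0.26.

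Of 45 phase I genes 9 were lower than at 16 h and 0 higher, and 9 were higher than at 48 h and 1 lower; the others were not called. CYP2E1 had 530, 630 and 669 at 24 h, against 2235, 2041 and 2491 at 16 h and 8.89, 35.7 and 92.1 at 48 h. The difference was -1.86 ± 0.25 against 16 h and 3.53 ± 0.25 against 48 h, with no overlap on either side. CYP2B6, an inducible cytochrome, differed by -1.32 ± 0.21 from 16 h and by 3.04 ± 0.21 from 48 h, and FABP1 by -2.41 ± 0.20 and 2.26 ± 0.20. ARG1 differed from 16 h by -2.06 ± 0.27 and from 48 h by 0.38 ± 0.27, which was not called. Of 31 coagulation genes 1 was lower than at 16 h, and 9 were higher than at 48 h, among them F9, clotting factor IX, at 1.55 ± 0.18 (adjusted p = 1.61e-07), named after its value was seen.

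Of 18 cholesterol synthesis genes 2 were lower at 24 h than at 48 h, INSIG1, which holds back the sterol sensor, at -1.53 ± 0.18 (adjusted p = 5.18e-07) and HMGCS1 at -1.20 ± 0.15, and 0 were higher; against 16 h they differed by -0.25 ± 0.18 and -0.65 ± 0.15. MMP3 differed by -1.11 ± 0.18 from 16 h and by 3.20 ± 0.18 from 48 h, with 2149, 2420 and 1683 at 24 h and 227, 215 and 185 at 48 h. The largest difference the other way was AGR2, a secretory disulfide isomerase, with 261, 443 and 343 at 24 h and 1212, 2124 and 2215 at 48 h (-2.33 ± 0.50), and it was not called with no pseudocount.

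**Figure D4:**
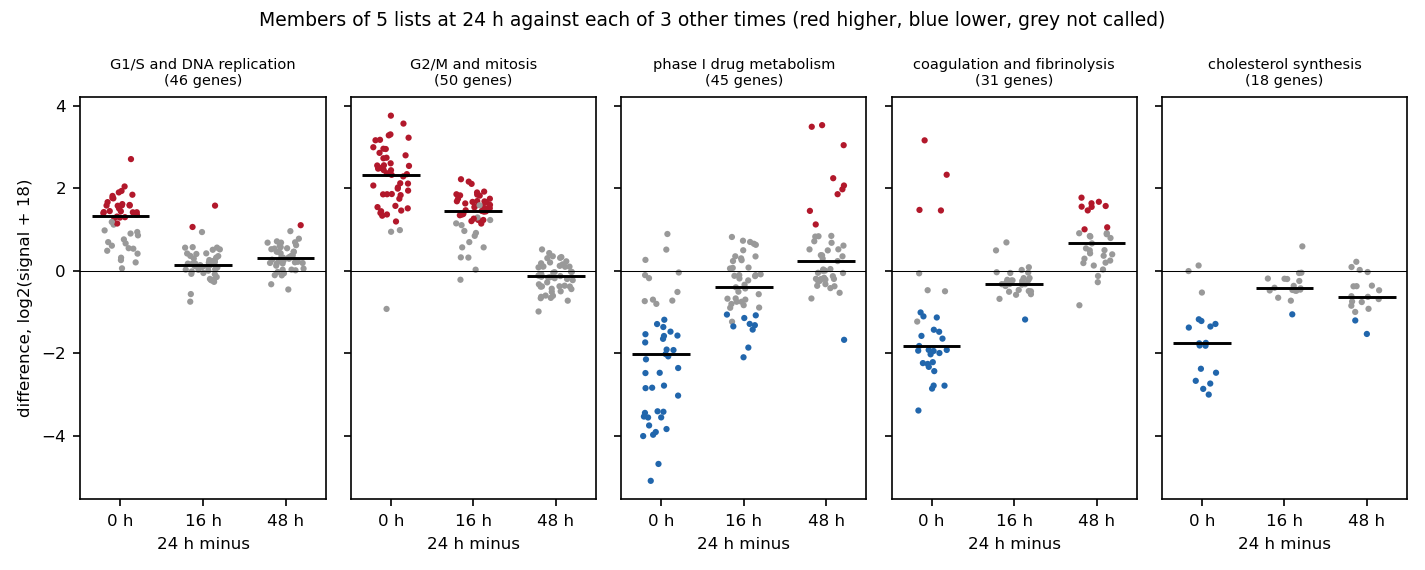
Difference of each tested member of 5 gene lists, as 24 h minus 0 h, 24 h minus 16 h and 24 h minus 48 h on the log2(signal + 18) scale, with red for called higher, blue for called lower, grey for not called and a line at the median. The mitotic median is 2.33, 1.46 and -0.13 in these comparisons, and the replication median is 1.34, 0.15 and 0.32.

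FAM111A, a protease that acts at replication forks, was the 1 gene called higher at 24 h than at both neighbouring times, and 0 genes were called lower than at both. Its signals were 2187, 2689 and 2239 at 24 h, 691, 831 and 741 at 16 h and 1088, 1218 and 1163 at 48 h. It was 1.63 ± 0.20 higher than at 16 h (adjusted p = 3.25e-06), 1.02 ± 0.20 higher than at 48 h (adjusted p = 0.00154) and 1.72 higher than at 0 h. The difference from 48 h passed the 2-fold threshold narrowly. Median centring moved the median of all genes against 48 h from 0.022 to -0.026, and the same shift takes FAM111A below 2-fold.

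**Figure D5:**
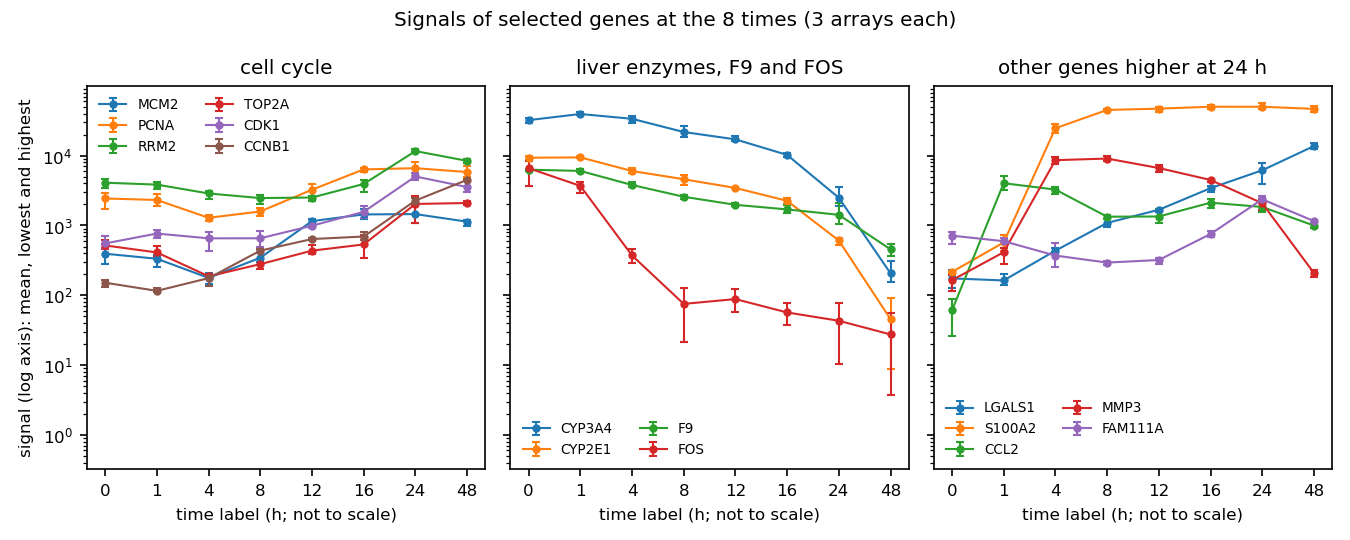
Mean signal of 15 genes at the 8 times on a log axis, with bars from the lowest to the highest of 3 arrays; times are evenly spaced and not to scale. CCNB1 averages 151.3 at 0 h, 2275 at 24 h and 4503 at 48 h, CYP2E1 averages 9348, 609.6 and 45.55 at these times, and FAM111A is highest at 24 h with 2372.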

How the data were processed

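Signals of 24 Affymetrix arrays with 3' in vitro transcription labelling of 100 ng RNA, 3 at each of 8 times, were used as deposited: linear intensities made with MAS5, per the submitters' processing notes, in a table deposited by the authors; the MAS5 version and target level are not stated in the sources used. The values showed that every array had been scaled to 1 level (a mean of 499.9 once the extreme 2% of probe sets at either end were left out). The number of arrays limits the precision. No 2 arrays held identical values.

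From these intensities log2(signal + 18) was computed, 18 being the 20th percentile of all signals, so the change of dim genes is understated. Probe sets entered the test when 3 or more of 24 arrays exceeded their own 40th percentile. Names came from the platform's annotation: 19065 of 22215 probe sets had 1 symbol, 1043 several and 2107 none, and only the first kind was named. Of several tested probe sets of a gene, the one with the highest mean log2 value was taken. For 763 genes it was an _x_at probe set. Group means over all 24 arrays were compared with limma 3.58.1 in R 4.3.3 (eBayes with a trend, 16 residual degrees of freedom, two-sided), which was tested on simulated data. Python 3.11.15 and matplotlib 3.10.9 drew the figures.

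The comparison, its 48 gene lists, thresholds and alternatives were chosen with earlier results of these data known. Genes were named by rule: the 15 largest rises and falls without overlap against 0 h, 5 and 5 against 16 h and 48 h, up to 5 called members of each list in each direction, and a further set of liver, progenitor and cell cycle genes. Some that meet the rule are counted only, and ANKRD1, ANXA1, ITGB4, RRM2, DTL, FAM111A, MT1H and the genes chosen for their promoters were named after their values were seen. TNF, EPCAM and HNF4A, of the further set, had no tested probe set with 1 symbol. Replicate numbers were checked for pairing. Deviations of same-numbered arrays at 24 h and 0 h correlated over all genes at 0.027, 0.032 and -0.013, and the main fit held no replicate block. Single genes could still follow the number, as RRM2 read lowest in replicate 3 at every time but 24 h. Whether same-numbered arrays share an origin was not tested. Alternatives were no or a larger pseudocount, quantile normalization, median centring, no or a stricter filter, the mean of probe sets, every probe set, no _x_at probe sets, the replicate block, the compared groups alone, no trend, and leaving out each array.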

Additional observations from a re-analysis of the deposited data

How the results depend on the processing

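The count of genes higher at 24 h than at 0 h was 822 with the larger pseudocount of 73.8, 1162 after quantile normalization and 1458 after median centring, and the count of genes lower was 781, 970 and 766. Every probe set counted on its own gave 1585 higher and 1849 lower against 0 h, 82 lower against 16 h, and 150 higher and 56 lower against 48 h, with 17122 features in place of 9966 genes. Leaving out each array in turn gave 1007 to 1067 genes higher and 1003 to 1157 lower against 0 h, 73 to 93 higher and 44 to 56 lower against 16 h, and 80 to 108 higher and 25 to 52 lower against 48 h; the count of 52 came without 24 h replicate 3, against 32 with it. With the replicate block the counts were 1040 higher and 1122 lower against 0 h, 81 and 49 against 16 h, and 88 and 31 against 48 h. The sign of APOL2 changed to -0.60 without _x_at probe sets, and that of SOX9, -0.07 with all arrays, to 0.14 after median centring; leaving out each array in turn gave -0.20 to 0.09 for SOX9, with 0.09 without 0 h replicate 2. Of 264 named calls 222 held in every alternative, 42 were lost in at least 1 and 1 changed sign. The 5 interferon-stimulated genes called lower were 2 with the larger pseudocount or median centring, and 3 after quantile normalization or without 24 h replicate 1, 24 h replicate 3, 0 h replicate 1 or 0 h replicate 3. The larger pseudocount left 3 of 6 cholangiocyte markers higher, 3 of 5 clock genes lower and 4 of 7 Wnt and TGF-beta genes lower. After median centring 8 in place of 5 CDK inhibitors and p53 targets were higher. The cause of these shifts was not tested. Dim signals near the pseudocount limit what can be said of size.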

Other observations

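Most called genes belonged to none of the lists: 792 of those higher at 24 h than at 0 h and 809 of those lower. Among the 15 largest rises outside the lists, RRAD, a small GTPase of muscle, had signals of 916, 598 and 945 at 24 h and 8.51, 64.9 and 8.61 at 0 h (4.40 ± 0.30, limma, adjusted p = 1.2e-13). PLEK2, a relative of the platelet protein pleckstrin, had 791, 913 and 835 at 24 h and 38.2, 34.7 and 17.8 at 0 h (4.19 ± 0.23). GPRC5A, an orphan receptor of epithelia, rose by 3.97 ± 0.31, and the adhesion receptor ADGRG1 by 3.94 ± 0.28. In all 4 genes the groups lay far apart. Among the largest falls outside the lists was CYP4B1, with 151, 40.2 and 153 at 24 h and 2050, 1822 and 2254 at 0 h (-4.11 ± 0.28).

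All 10 metallothionein genes and partners missed the thresholds against 0 h, with a median of 0.29, against -0.09 over all genes. Against 16 h their median was -0.63, and MT1H was called lower at -1.03.

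Of 776 called genes with other tested probe sets, 649 had all of them on the same side of 0 and 410 had at least 1 other called the same way. For 9 another probe set was called the opposite way: BTG3, CAPN2, CASP4, GPRC5B, ITGB4, MEX3D, NCAPH2, QTGAL and SMOX. In CAPN2, a calpain subunit, 1 probe set rose by 1.52 ± 0.13 and the other fell by 1.16 ± 0.45.

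The motif TGAGTCA, the AP-1 letters searched on both strands, lay in 4.53% of the promoters of genes higher at 24 h, 2.51% of those of genes lower and 3.3% of those of tested genes.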
